A study of Homo sapiens with 18 samples.

Results

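Aminoacyl-tRNA synthetases join each amino acid to its own transfer RNA, the step that fixes the genetic code before a ribosome reads a codon. Human cells keep separate nuclear genes for most of the cytosolic and the mitochondrial enzymes, and the mitochondrial ones mostly carry names ending in 2. The genes described here are 36 of the 27166 in the deposited table, found by their names in the older GENCODE spelling (AARS for the gene now called AARS1): 20 cytosolic and 16 mitochondrial. GARS and KARS each encode both forms of their enzyme and are counted as cytosolic, and EPRS, a fused enzyme for glutamate and proline, is the cytosolic partner of both EARS2 and PARS2. In the cytosol 8 of the enzymes (EPRS, IARS, LARS, MARS, QARS, RARS, KARS and DARS) sit with scaffold proteins in the multi-synthetase complex. Many cytosolic synthetase genes are known targets of ATF4, a transcription factor of the amino acid and endoplasmic reticulum stress responses.

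The 18 RNA sequencing libraries came from 3 human cancer cell lines: HUH7 (hepatocellular carcinoma, liver), DLD1 (colon adenocarcinoma) and NCIH838 (lung adenocarcinoma). In each line, 3 biological replicates transduced with lentiCRISPR v2 and 1 guide for KDSR (KDSR KO) stand against 3 that received a non-targeting guide (CTRL). KDSR encodes an enzyme of early sphingolipid synthesis in the endoplasmic reticulum. Cells of both groups had 5 days of puromycin. The harvest was on day 8 for HUH7 and DLD1, counted from infection, but on day 10 for NCIH838, so line and day cannot be told apart for NCIH838.

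Recovered reads ran from 17039634 to 20385767 per library, and every synthetase gene but SARS2 had at least 92 reads in each library. KDSR mRNA was 18.7 to 19.5 TPM in DLD1 KDSR KO and 27.2 to 32.2 TPM in DLD1 CTRL, and 3.21 to 4.01 TPM in HUH7 KDSR KO and 5.08 to 6.54 TPM in HUH7 CTRL. The fall passed in DLD1 (log2 -0.60, limma adjusted p = 0.000775) but not in HUH7 (log2 -0.55, adjusted p = 0.114). All KDSR KO libraries lay below the CTRL range for 27.2% of all genes in DLD1 and 10.1% in HUH7. In NCIH838 KDSR mRNA was 12.3 to 13.8 TPM in the libraries labelled KDSR KO and 11.9 to 14.7 TPM in CTRL, so mRNA gives no check of the label there. Of 7 liver markers 7 reached a mean of 1 TPM in HUH7, and of 7 colon markers 5 did so in DLD1, with CDX1 and GPA33 under 1 TPM. HUH7 also had 5 of the colon markers at that level. Of 7 lung markers, SFTPA1 had no values, and of the others KRT7 alone reached 1 TPM in NCIH838. The defining genes NKX2-1 and SFTPB had means under 0.1 TPM there. HUH7 CTRL replicate 1 stood apart from the other libraries of its group: mitochondrially encoded genes took 12.5% of its TPM, against 7.07% and 8.34% in CTRL replicates 2 and 3. It held the lowest of the 6 HUH7 values for 24 of the 36 synthetase genes. By chi-square per degree of freedom on read counts, it differed from replicates 2 and 3 by 21.4 and 19.5. Replicates 2 and 3 differed by 3.76. DLD1 CTRL replicate 3 likewise differed from replicates 1 and 2 by 10.3 and 7.92, against 3.51 between those. NCIH838 KDSR KO replicate 2 differed from replicates 1 and 3 by 16.2 and 9.95, against 6.55 between those.

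Among CTRL cells, which had the non-targeting guide and puromycin, the lines held the synthetase genes at different levels. TPM corrects for gene length, here all annotated exon bases of a gene (10037 for CARS and 2152 for YARS2). Ranks between genes depend on that length, which need not be that of the mRNA in use. In CTRL cells the median level of the cytosolic genes was 168 TPM in HUH7, 211 TPM in DLD1 and 206 TPM in NCIH838, while the median of the mitochondrial genes was 25.8, 36.9 and 32.9 TPM in the same order of lines. CARS was the lowest cytosolic gene and SARS2 the lowest mitochondrial gene in each line. The highest cytosolic gene was AARS in HUH7, GARS in DLD1 and KARS in NCIH838.

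AARS, which charges alanine tRNA, had 138, 153 and 139 TPM in NCIH838 CTRL, 144, 157 and 161 TPM in DLD1 CTRL and 620, 649 and 644 TPM in HUH7 CTRL. All HUH7 values lay far above those of the other lines, and the log2 difference was -2.15 for NCIH838 minus HUH7 (limma, adjusted p = 3.45e-15) and -2.04 for DLD1 minus HUH7 (5.62e-15). DLD1 and NCIH838 did not differ beyond their spread for AARS (log2 difference -0.11, limma adjusted p = 0.0761). YARS2, the mitochondrial tyrosine enzyme, ran the other way: it had 227, 247 and 256 TPM in NCIH838 CTRL, 75.9, 74.2 and 71.3 TPM in DLD1 CTRL and 44.4, 49.3 and 54.7 TPM in HUH7 CTRL. Each step in that order passed the test (log2 1.70 for NCIH838 minus DLD1 and 0.57 for DLD1 minus HUH7, limma adjusted p = 6.11e-12 and 3.93e-06). It was the 1 mitochondrial gene above the median of the cytosolic genes in NCIH838 CTRL, and no mitochondrial gene was so in HUH7 or DLD1 CTRL.

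SARS, the serine enzyme, had a mean of 482 TPM in NCIH838 CTRL, 232 TPM in DLD1 CTRL and 130 TPM in HUH7 CTRL, each neighbour differing by limma. KARS, FARSA and LARS, for lysine, phenylalanine and leucine, were likewise higher in NCIH838 CTRL than in DLD1 CTRL by 1.26, 1.14 and 1.18 on the log2 scale, whereas for KARS and LARS DLD1 and HUH7 did not differ beyond their spread (adjusted p = 0.12 and 0.496). CARS2, the mitochondrial cysteine enzyme, was lowest in NCIH838 CTRL (8.43 ± 0.323 TPM, SD, n = 3) and highest in DLD1 CTRL (23.5 ± 0.143 TPM, n = 3), a log2 difference of -1.38 (limma adjusted p = 4.08e-12). GARS differed least between lines among the cytosolic genes, with means between 399 and 440 TPM.

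Across pairs of lines 28 of the 36 genes differed for DLD1 CTRL minus HUH7 CTRL (77.8%, against 75.7% of all genes tested), 31 for NCIH838 CTRL minus HUH7 CTRL (86.1%, against 76.3%) and 28 for NCIH838 CTRL minus DLD1 CTRL (77.8%, against 77.7%). These shares lie near those of all genes. The first contrast and the second share the HUH7 CTRL libraries, and the second and the third share those of NCIH838.

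**Figure D1:**
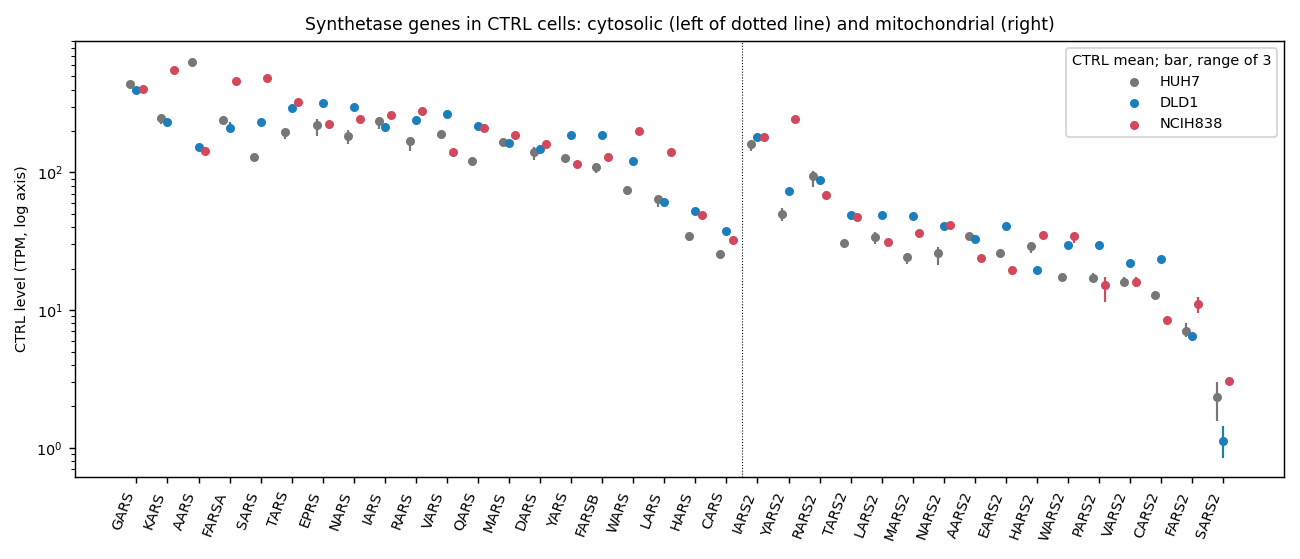
Level of each of the 36 genes in CTRL cells, in TPM on a log axis; points are means of 3 libraries and bars run from the lowest to the highest library. AARS stands out in HUH7, with a mean of 638 TPM, and YARS2 in NCIH838, with a mean of 243 TPM.

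The sequence around the start of these genes was set beside the levels because 3 short motifs have known readers: TGATGNAA, the composite element bound by ATF4 with C/EBP partners, GAAA repeated after a gap of 2 bases, the core of the interferon-stimulated response element, and CACGTG, the E-box read by MYC and related factors. RefSeq promoter windows (GRCh38.p14, from 250 bases before to 50 bases after a start) were found for 30 of the 36 genes, 16 cytosolic and 14 mitochondrial, and searched on both strands. TGATGNAA occurred in 7 of 16 cytosolic genes and 1 of 14 mitochondrial genes, against 4.46% of 27305 genes with a window. The matches follow, with the motif in capitals as it reads on the gene's own strand; a match on the other strand appears as its reverse complement.

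AARS: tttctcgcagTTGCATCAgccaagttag
CARS: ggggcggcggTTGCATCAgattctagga
GARS: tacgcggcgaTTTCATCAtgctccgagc
IARS: tttcagcgcgTTGCATCAcctccgtgcg
MARS: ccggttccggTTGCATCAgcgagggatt
NARS: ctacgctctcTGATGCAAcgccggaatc
TARS: cgcctttcgaTTGCATCAgctggtccag
YARS2: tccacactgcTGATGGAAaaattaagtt

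In GRCh38.p14 these stretches are AARS at chr16:70289676-70289703 (minus strand), CARS at chr11:3057408-3057435 (minus strand), GARS at chr7:30594835-30594862 (plus strand), IARS at chr9:92293693-92293720 (minus strand). The others are MARS at chr12:57488054-57488081 (plus strand), NARS at chr18:57621805-57621832 (minus strand), TARS at chr5:33440957-33440984 (plus strand) and YARS2 at chr12:32756077-32756104 (minus strand).

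The spaced GAAA repeat occurred in 1 cytosolic gene, WARS, whose mRNA is a textbook interferon target, and in 1 mitochondrial gene, EARS2, against 4.38% of all genes with a window.

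WARS: tttcagaaggGAAACTGAAAgaaagagggg
EARS2: cctgccacgcTTTCGCTTTCccaagctgaa

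These lie in WARS at chr14:100375383-100375412 (minus strand) and EARS2 at chr16:23557554-23557583 (minus strand). CACGTG occurred in IARS and in 3 mitochondrial genes (CARS2, EARS2 and MARS2), against 8.77% of all genes. A match is a run of letters in this window and not a shown binding site. Of the 7 cytosolic genes with TGATGNAA, 2 rose and 0 fell in DLD1 KDSR KO (CARS and GARS) and 1 rose and 1 fell in NCIH838 KDSR KO (CARS and NARS). Of the 9 searched cytosolic genes without it, 3 rose and 0 fell in DLD1, and 2 rose and 2 fell in NCIH838. Of all genes tested, 17.3% were called in DLD1 and 42.5% in NCIH838, and no test compared genes with and without the motif.

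In HUH7, none of the 36 genes changed in KDSR KO by limma at an adjusted p under 0.05 (0 of 20 cytosolic and 0 of 16 mitochondrial, with 0% of 16104 genes called in that line). At an unadjusted p under 0.05 there were 3 cytosolic genes and 1 mitochondrial gene, against 1806 of all genes, and the smallest adjusted p of a synthetase gene was 0.415. That gene was DARS, the aspartate enzyme of the complex, with 153.1, 162.2 and 165.5 TPM in KDSR KO and 122.3, 152.5 and 146 TPM in CTRL. The groups did not overlap, but KDSR KO replicate 1 and CTRL replicate 2 nearly met (153.1 and 152.5 TPM). The lowest value came from CTRL replicate 1, the HUH7 library that stands apart. Log2 changes of the 36 genes ran from -0.16 to 0.33, with 22 above 0 and 14 below. All KDSR KO libraries lay above the CTRL range for 6 of the 36 genes (against 6.81% of all genes) and below it for 2 (against 10.1%). The count stayed at 0 in every alternative fit, limma voom and the fit without HUH7 CTRL replicate 1 among them.

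In DLD1, 5 cytosolic genes rose in KDSR KO (CARS, GARS, HARS, SARS and WARS) and 1 fell (VARS), while 0 mitochondrial genes rose and 5 fell (CARS2, FARS2, MARS2, TARS2 and VARS2). These 11 are 30.6% of the 36 genes, against 17.3% of 15478 genes tested, of which 5.16% were higher and 12.1% lower. The share of all genes depends on the filter: at 5 TPM, 2466 of 11039 genes were called in DLD1, a larger share. The median log2 change was 0.04 for the cytosolic genes, -0.12 for the mitochondrial genes and -0.07 for all genes tested. All KDSR KO libraries lay above the CTRL range for 8 of the 36 genes (against 12.1% of all genes) and below it for 14 (against 27.2%). As each library is a bulk culture, fewer cells with an mRNA and less of it per cell cannot be told apart.

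WARS, which charges tryptophan tRNA, had 149, 144 and 146 TPM in DLD1 KDSR KO and 118, 124 and 122 TPM in CTRL. Every KDSR KO library lay above every CTRL library, and the rise was 0.27 on the log2 scale (SE 0.0517, limma adjusted p = 0.00292). WARS shares 10.6% of its exon bases with other genes, among them WDR25. CARS, the cysteine enzyme, had 44.7, 43.2 and 45.4 TPM in KDSR KO and 36.2, 38.7 and 38 TPM in CTRL, a rise of 0.23 (SE 0.0438, adjusted p = 0.00259). GARS, the glycine enzyme of both compartments, had 453, 456 and 440 TPM in KDSR KO and 398, 410 and 388 TPM in CTRL, a rise of 0.17 (SE 0.0384, adjusted p = 0.00673). As ratios these 3 rises were 1.21, 1.18 and 1.13, and their groups did not overlap.

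SARS had 252, 260 and 262 TPM in DLD1 KDSR KO and 217, 234 and 244 TPM in CTRL (log2 0.16, SE 0.0454, limma adjusted p = 0.0294). HARS, the histidine enzyme, had 57.8, 57.6 and 61.6 TPM in KDSR KO and 51.4, 50.9 and 54.1 TPM in CTRL (log2 0.18, SE 0.0555, limma adjusted p = 0.042). Both were higher in each KDSR KO library, but neither call was firm, and HARS shares 8.38% of its exon bases with HARS2 and WDR55. HARS lost its call without any 1 of the 6 DLD1 libraries (adjusted p from 0.0525 to 0.148) and with a replicate block (0.0845), and SARS lost its call without CTRL replicate 1 or 2 (0.114 and 0.0586) or KDSR KO replicate 2 or 3 (0.0844 and 0.0923).

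VARS, the valine enzyme, fell in DLD1, to 225, 210 and 218 TPM in KDSR KO, against 250, 257 and 285 TPM in CTRL. The groups did not overlap, and the log2 change was -0.28 (SE 0.0628, limma adjusted p = 0.00806). Its mitochondrial counterpart VARS2 fell too, to 17.9, 18.4 and 19.2 TPM in KDSR KO, against 20.9, 22.6 and 22.7 TPM in CTRL (log2 -0.24, SE 0.0655, limma adjusted p = 0.0199). VARS2 shares 22% of its exon bases with GTF2H4, and the strand setting of the counting is not known here, so reads of the pair may be mixed.

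TARS2, the mitochondrial threonine enzyme, had 38.3, 42.1 and 41.6 TPM in DLD1 KDSR KO and 47.3, 49.6 and 50.5 TPM in CTRL (log2 -0.27, SE 0.0546, limma adjusted p = 0.00437). CARS2 had 19.8, 19.4 and 20.2 TPM in KDSR KO and 23.6, 23.6 and 23.4 TPM in CTRL (log2 -0.24, SE 0.0587, adjusted p = 0.013). MARS2, for methionine, had 44.6, 39.9 and 39.5 TPM in KDSR KO and 47.2, 48.9 and 48.5 TPM in CTRL (log2 -0.22, SE 0.0663, adjusted p = 0.035). In these 3 genes all KDSR KO libraries lay below the CTRL range.

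FARS2, for phenylalanine, was the least abundant of the 5, with 4.20, 5.20 and 5.14 TPM in DLD1 KDSR KO and 5.95, 6.73 and 6.65 TPM in CTRL (log2 -0.35, SE 0.101, limma adjusted p = 0.027). The count of 5 mitochondrial falls was 2 without CTRL replicate 2 or 3, and 3 without KDSR KO replicate 1 or 2 or with median ratio scaling. With quantile normalization and with limma voom on recovered reads there were 3 falls and 1 rise (RARS2), and FARS2 (adjusted p = 0.162 and 0.0924) and VARS2 (0.12 and 0.0607) did not pass. FARS2 lost its call without CTRL replicate 2 or 3 or KDSR KO replicate 1 (adjusted p = 0.0829, 0.0867 and 0.118), MARS2 without any DLD1 library but KDSR KO replicate 1 (0.0544 to 0.123), and VARS2 without CTRL replicate 2 or 3 or KDSR KO replicate 1 or 2 (0.0567 to 0.0759). TARS2 kept its call in all 29 alternatives.

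The remaining 14 cytosolic and 11 mitochondrial genes did not pass in DLD1. Nearest to the threshold was IARS, the isoleucine enzyme, with 239, 244 and 247 TPM in KDSR KO and 205, 220 and 212 TPM in CTRL (log2 0.20, limma adjusted p = 0.0501), followed by QARS, the glutamine enzyme, with 193, 199 and 198 TPM in KDSR KO and 207, 216 and 227 TPM in CTRL (log2 -0.14, adjusted p = 0.0528). Neither pair of groups overlapped. SARS2, with 14 reads in its lowest library and 57.0% of its exon bases shared with other genes, cannot be read well in any line.

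The DLD1 counts moved with the scaling, and the cause was not tested. When each library's trend of level with transcript GC content was removed, an alternative chosen after the data were seen, 12 cytosolic genes rose and 1 fell, and 2 mitochondrial genes rose (RARS2 and SARS2, adjusted p = 0.00524 and 0.0486) and 3 fell (TARS2, MARS2 and IARS2, the last with an adjusted p of 0.0232). All-gene calls in DLD1 then split into 1883 higher and 1282 lower, against 799 higher and 1875 lower without that step and 1233 higher and 970 lower with quantile normalization. Under the same alternative the falls of VARS and TARS2 remained called but shrank to -0.10 and -0.16, while those of CARS2, VARS2 and FARS2 no longer passed (adjusted p = 0.19, 0.199 and 0.0764).

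In NCIH838, 4 cytosolic genes rose in the libraries labelled KDSR KO (CARS, HARS, WARS and YARS) and 5 fell (FARSB, LARS, NARS, QARS and VARS), and 1 mitochondrial gene rose (AARS2) and 5 fell (IARS2, LARS2, NARS2, TARS2 and VARS2). These 15 are 41.7% of the 36 genes, against 42.5% of 16347 genes tested (15.7% higher, 26.8% lower), so the share is near that background. With a filter at 5 TPM, 5718 of 11459 genes were called in NCIH838, a larger share of all genes. The median log2 change was -0.07 for the cytosolic genes, -0.14 for the mitochondrial genes and -0.09 for all genes tested. All KDSR KO libraries lay above the CTRL range for 6 of the 36 genes (against 18.9% of all genes) and below it for 12 (against 31.9%).

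The largest change of any synthetase gene was in NARS2, the mitochondrial asparagine enzyme. It fell to 27.5, 20.2 and 24.0 TPM in NCIH838 KDSR KO, against 41.3, 41.9 and 40.5 TPM in CTRL. The groups were far apart, and the log2 change was -0.77 (SE 0.107, limma adjusted p = 4.21e-05). IARS2, the mitochondrial isoleucine enzyme, fell to 131, 110 and 119 TPM in KDSR KO, against 177, 178 and 183 TPM in CTRL (log2 -0.58, SE 0.0649, limma adjusted p = 5.39e-06). In all 29 alternatives both falls kept their call, with log2 changes from -0.88 to -0.66 for NARS2 and from -0.65 to -0.48 for IARS2. KDSR KO replicate 2 was the lowest of the 6 libraries for both genes, and for 15 of the 36 genes in all.

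QARS fell in NCIH838 to 164, 171 and 163 TPM in KDSR KO, against 199, 226 and 209 TPM in CTRL (log2 -0.34, SE 0.047, limma adjusted p = 3.64e-05). NARS, the cytosolic asparagine enzyme, fell to 217, 180 and 203 TPM in KDSR KO, against 241, 237 and 257 TPM in CTRL (log2 -0.30, SE 0.0785, limma adjusted p = 0.0069). Thus both asparagine genes fell in NCIH838, the mitochondrial one by more. LARS fell to 127, 108 and 122 TPM in KDSR KO, against 138, 144 and 137 TPM in CTRL (log2 -0.23, SE 0.0717, limma adjusted p = 0.0159), and its call was lost without CTRL replicate 2 (0.0571) or KDSR KO replicate 2 (0.0816).

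FARSB, the beta subunit of the phenylalanine enzyme, had 122, 99.0 and 111 TPM in NCIH838 KDSR KO and 125, 129 and 132 TPM in CTRL (log2 -0.22, SE 0.0745, limma adjusted p = 0.0264). Its alpha subunit FARSA, which shares the enzyme with it, had 459, 524 and 451 TPM in KDSR KO and 443, 475 and 474 TPM in CTRL and did not pass (log2 0.04). FARSB lost its call without CTRL replicate 2 or 3 or KDSR KO replicate 2 or 3 (adjusted p from 0.0568 to 0.134). VARS had 121, 138 and 121 TPM in KDSR KO and 136, 149 and 141 TPM in CTRL (log2 -0.16, SE 0.0628, limma adjusted p = 0.0478). Its groups overlapped and its call was lost in 21 of 29 alternatives, including those without CTRL replicate 2 or 3 or KDSR KO replicate 1 or 3 (0.0857 to 0.173).

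WARS was the cytosolic gene with the largest rise in NCIH838, with 269, 273 and 256 TPM in KDSR KO and 191, 205 and 205 TPM in CTRL (log2 0.41, SE 0.0517, limma adjusted p = 1.85e-05). CARS had 39.3, 42.1 and 38.6 TPM in KDSR KO and 31.3, 32.9 and 32.7 TPM in CTRL (log2 0.30, SE 0.0438, adjusted p = 6.63e-05). Neither pair of groups overlapped, and both calls were kept in all 29 alternatives, as in DLD1. YARS, the tyrosine enzyme, had 125, 131 and 123 TPM in KDSR KO and 110, 122 and 116 TPM in CTRL (log2 0.13, SE 0.0425, adjusted p = 0.0259). HARS had 55.1, 54.7 and 52.9 TPM in KDSR KO and 50.7, 46.7 and 49.1 TPM in CTRL (log2 0.15, SE 0.0555, adjusted p = 0.0427). The calls of these last 2 were weak: YARS lost its call without CTRL replicate 1 or 3 or KDSR KO replicate 2 (0.0594 to 0.128), and HARS without any NCIH838 library but CTRL replicate 1 (0.055 to 0.158) and with a replicate block (0.0791).

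AARS2, the mitochondrial alanine enzyme, was the 1 mitochondrial gene that rose, with 30.3, 29.6 and 29.1 TPM in NCIH838 KDSR KO and 23.2, 24.2 and 24.1 TPM in CTRL (log2 0.31, SE 0.06, limma adjusted p = 0.000832). TARS2 fell to 40.6, 42.6 and 37.6 TPM in KDSR KO, against 45.2, 49.3 and 48.1 TPM in CTRL (log2 -0.23, SE 0.0546, adjusted p = 0.00298). VARS2 fell to 12.4, 13.1 and 12.3 TPM in KDSR KO, against 15.6, 17.4 and 14.8 TPM in CTRL (log2 -0.31, SE 0.0655, adjusted p = 0.00137). These 3 calls were kept in all 29 alternatives. LARS2, for leucine, fell to 28.8, 24.8 and 26.5 TPM in KDSR KO, against 30.3, 32.3 and 31.4 TPM in CTRL (log2 -0.23, SE 0.0649, adjusted p = 0.0112), a call lost without KDSR KO replicate 2 (0.0562).

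The other 11 cytosolic and 10 mitochondrial genes had log2 changes from -0.23 to 0.11 in NCIH838 and did not pass. The cytosolic count of 9 was 5 without CTRL replicate 2, without CTRL replicate 3, without KDSR KO replicate 2, or when NCIH838 was fitted without the other lines. With the GC trend removed, 8 cytosolic genes rose (FARSA, GARS, SARS and TARS beside the 4 above) and 5 fell, and 1 mitochondrial gene rose and 5 fell. The falls of FARSB and LARS then shrank to -0.10 and -0.12. All-gene calls split into 4084 higher and 3807 lower under that step, against 2560 higher and 4385 lower without it.

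**Figure D2:**
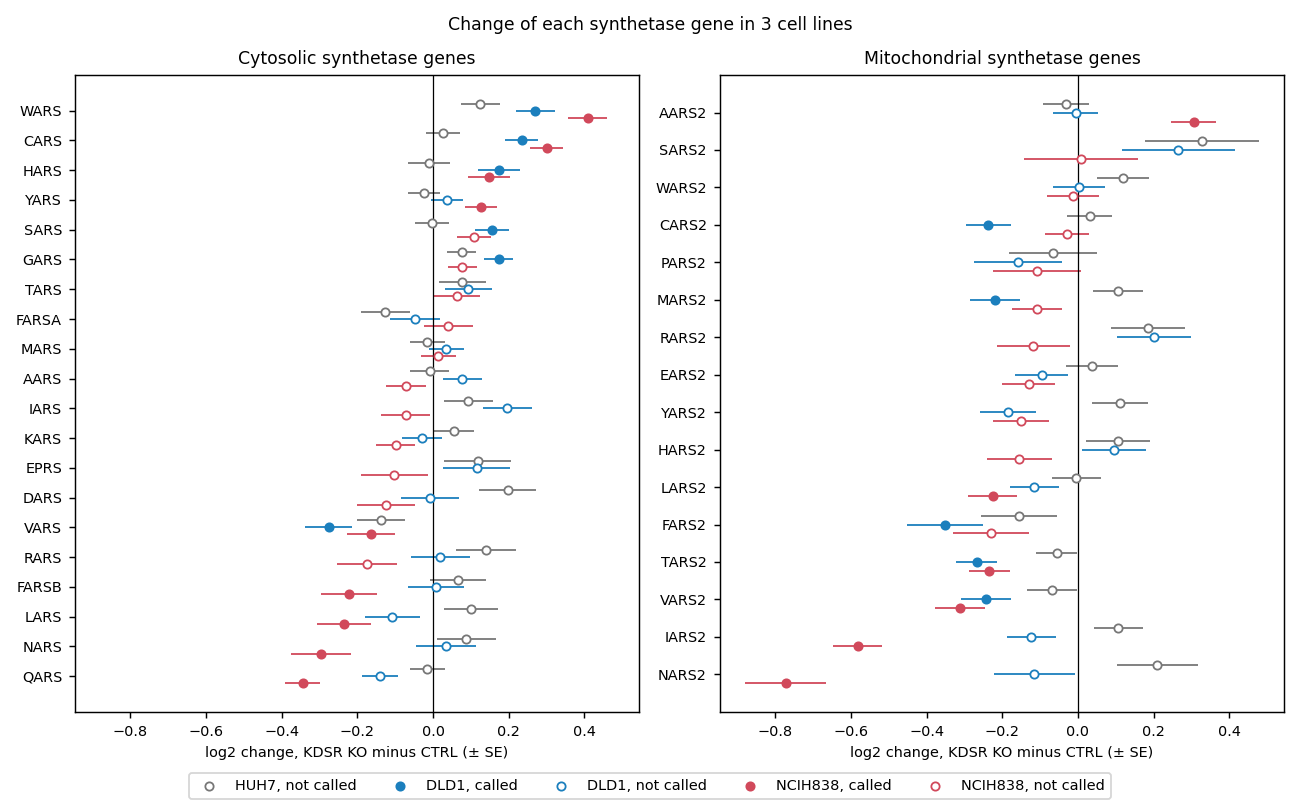
Log2 change on the log2(TPM + 1) scale (KDSR KO minus CTRL, points, with SE as bars) of each gene in the 3 lines, cytosolic genes left and mitochondrial genes right; filled points passed limma's adjusted p threshold of 0.05. NARS2 (-0.77) and IARS2 (-0.58) in NCIH838 lie farthest to the left and WARS (0.41) in NCIH838 farthest to the right.

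**Figure D3:**
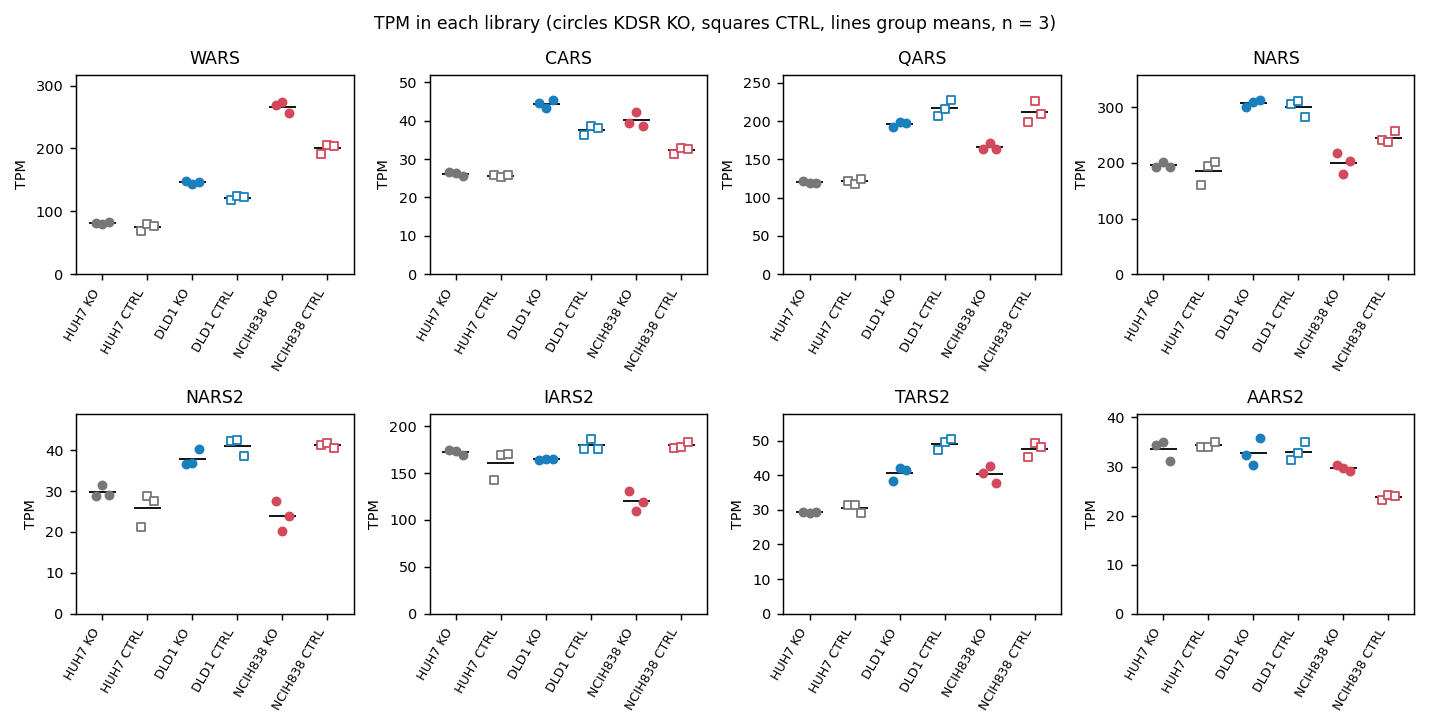
TPM of 8 synthetase genes in each of the 18 libraries, with circles for KDSR KO, squares for CTRL and lines for means of 3. WARS and CARS lie higher in KDSR KO in DLD1 and NCIH838, and NARS2 and IARS2 lie lowest in NCIH838 KDSR KO (means of 23.9 and 120 TPM).

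Of the genes called, CARS, HARS and WARS rose in both DLD1 and NCIH838 (3 of 5 rises in each line), and TARS2, VARS and VARS2 fell in both (3 of 6 falls in DLD1 and 3 of 10 in NCIH838). A total of 20 genes were called in at least 1 of these lines, and 0 were called in opposite directions. No test of the overlap was made, and shared or opposite calls were not counted over all genes. Of the shared genes, CARS, WARS and TARS2 kept their calls in both lines in all 29 alternatives, and HARS, VARS and VARS2 did not. Of the 8 enzymes in the multi-synthetase complex 0 rose in either line by limma, with 0 falls in DLD1 and 2 in NCIH838 (LARS and QARS). Of the 12 cytosolic genes outside it 5 rose and 1 fell in DLD1 and 4 rose and 3 fell in NCIH838. Of all genes tested, 5.16% were higher and 12.1% lower in DLD1, and 15.7% higher and 26.8% lower in NCIH838, and no test compared the enzymes inside the complex with those outside it. The 0 for DLD1 depends on the setting: IARS passed in 12 of 29 alternatives, and with the GC trend removed IARS, EPRS and MARS rose (adjusted p = 0.000176, 0.0381 and 0.00745). At an unadjusted p under 0.05 there were 2 complex genes in DLD1 (IARS above 0 and QARS below) and 3 in NCIH838 (LARS, QARS and RARS, all below 0). Among the 3 scaffold proteins of the complex 0 changed in DLD1, and in NCIH838 AIMP1 fell (61.3 ± 6.53 TPM in KDSR KO and 74.3 ± 3.52 TPM in CTRL, SD, n = 3 each; limma adjusted p = 0.0418), with AIMP2 and EEF1E1 not passing (log2 -0.20 and -0.39).

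Cytosolic and mitochondrial enzymes for the same amino acid were set side by side in 16 pairs. EPRS stood in the pairs of both EARS2 and PARS2, and FARS2 was paired with FARSA only. The other subunit gene, FARSB, changed by 0.01 in DLD1 and -0.22 in NCIH838, against -0.35 and -0.23 for FARS2. The mitochondrial change was below the cytosolic one in 13 of 16 pairs in DLD1 (median difference of log2 changes -0.22) and in 13 of 16 in NCIH838 (-0.21), but in 7 of 16 in HUH7 (0.01). In DLD1 the widest gap was for cysteine, where CARS changed by 0.23 and CARS2 by -0.24. In NCIH838 it was for isoleucine, where IARS changed by -0.07 and IARS2 by -0.58. Asparagine, tryptophan and cysteine followed among the pairs in which the mitochondrial change was the lower. Alanine went the other way in NCIH838, with AARS2 at 0.31 and AARS at -0.07, a wider gap than that of cysteine. These pairs are described by their counts and were not tested as a group.

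Summed over genes, mitochondrial synthetase mRNA was 678, 693 and 696 TPM in DLD1 KDSR KO and 733, 750 and 722 TPM in DLD1 CTRL, and 736, 655 and 669 TPM in NCIH838 KDSR KO and 784, 821 and 837 TPM in NCIH838 CTRL. In both lines the groups did not overlap. For single genes, all KDSR KO libraries lay below the CTRL range in 27.2% of all genes in DLD1 and 31.9% in NCIH838. Abundant genes weigh most in such sums. The mean mitochondrial sum in NCIH838 went from 814 TPM in CTRL to 687 TPM in KDSR KO. Within it, IARS2 alone went from 179 to 120 TPM. The cytosolic sum was 4166 ± 30.5 TPM in DLD1 KDSR KO and 4029 ± 83.8 TPM in DLD1 CTRL, and 4667 ± 108 TPM in NCIH838 KDSR KO and 4747 ± 126 TPM in NCIH838 CTRL (SD, n = 3 each). The mitochondrial sum as a percentage of the cytosolic sum was thus 16.5% ± 0.115 in DLD1 KDSR KO and 18.3% ± 0.257 in CTRL, and 14.7% ± 0.625 in NCIH838 KDSR KO and 17.2% ± 0.161 in CTRL, a wider gap than the spread between replicates. In HUH7 it was 16% ± 0.217 in KDSR KO and 15.5% ± 0.469 in CTRL, within that spread. The share of TPM in genes encoded by mitochondrial DNA was 8.35% to 9.59% in DLD1 KDSR KO and 6.32% to 8.96% in DLD1 CTRL, and 11.9% to 15.2% in both NCIH838 groups. Its part in the sums was not tested.

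**Figure D4:**
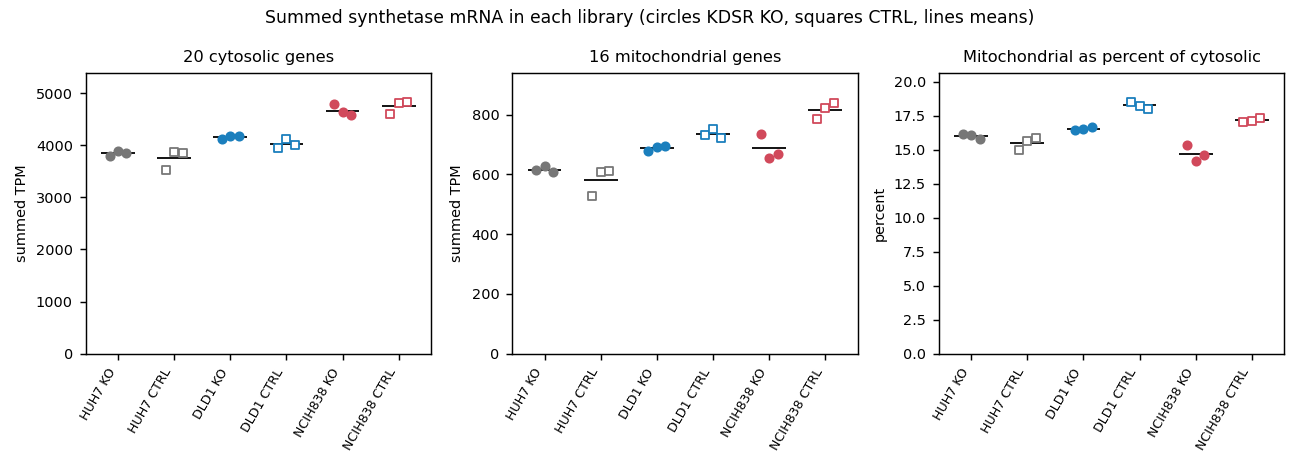
Summed TPM of the 20 cytosolic genes, of the 16 mitochondrial genes, and the second as a percentage of the first, in each library (circles KDSR KO, squares CTRL, lines means of 3). In DLD1 and NCIH838 the percentage is lower in every KDSR KO library (14.1% to 16.7%) than in every CTRL library (17.0% to 18.5%).

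Whether a change differed between lines was tested as the difference of the KDSR KO effects. Between DLD1 and HUH7, 0 of 36 genes differed by limma (against 2.62% of all genes; 9 of 36 and 2451 of all genes at an unadjusted p under 0.05), a count that was 2 with quantile normalization and 8 with the GC trend removed. Between NCIH838 and HUH7, 11 genes differed (30.6%, against 33% of all genes). The effect was higher in NCIH838 for 3 (CARS, WARS and AARS2, against 11.8% of all genes) and lower for 8 (DARS, FARSB, LARS, NARS, QARS, RARS, IARS2 and NARS2, against 21.2%). NARS2 differed by -0.98 (SE 0.151, limma adjusted p = 0.000261) and IARS2 by -0.69 (SE 0.0918, adjusted p = 7.85e-05). Between NCIH838 and DLD1, 4 genes differed (11.1%, against 18.2% of all genes, 9.59% higher and 8.65% lower): NARS2 by -0.66, IARS2 by -0.46, QARS by -0.20 and AARS2 by 0.31. That count was 7 without HUH7 CTRL replicate 1 and 2 without DLD1 KDSR KO replicate 2. These comparisons share libraries with each other and with the tests within each line.

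Genes around the synthetases in the same pathway were counted from fixed lists. Regulators of the amino acid stress response (kinases that sense uncharged tRNA and other stress, ATF4 and its partners) numbered 13, of which 0 passed limma's threshold in HUH7, 6 rose and 1 fell in DLD1 (against 17.3% of all genes called), and 8 rose and 3 fell in NCIH838 (against 42.5%). ATF4 had 940 ± 7.21 TPM in DLD1 KDSR KO and 757 ± 22.6 TPM in CTRL, and 672 ± 39.2 TPM in NCIH838 KDSR KO and 545 ± 16.5 TPM in CTRL (SD, n = 3 each; limma adjusted p = 0.000125 and 2.8e-05). EIF2AK4 (GCN2), the kinase that binds uncharged tRNA, fell in NCIH838, to 26.2 ± 1.65 TPM in KDSR KO, against 33.1 ± 1.57 TPM in CTRL (adjusted p = 0.00294). DDIT3 (CHOP), whose exons overlap those of MARS, rose by 1.85 on the log2 scale in DLD1 and by 0.98 in NCIH838, while MARS, with 13.3% of its exon bases shared with other genes, changed by 0.04 and 0.01 and did not pass.

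Other ATF4 target genes, mostly amino acid transporters and enzymes of amino acid synthesis, rose in 12 of 25 cases with 0 falls in DLD1, and in NCIH838 11 of 28 rose and 8 fell, against 0 of 28 in either direction in HUH7. Of all genes, 5.16% were higher and 12.1% lower in DLD1, and 15.7% higher and 26.8% lower in NCIH838, so the share of falls in NCIH838 is near that of all genes. Their median log2 changes were 0.22 in DLD1, 0.04 in NCIH838 and 0.02 in HUH7. SESN2, a stress-induced inhibitor of mTORC1 signalling, had 85.2 ± 2.68 TPM in DLD1 KDSR KO and 44.1 ± 4.93 TPM in CTRL, and 133 ± 18.8 TPM in NCIH838 KDSR KO and 39.8 ± 2.78 TPM in CTRL (SD, n = 3 each; limma adjusted p = 7.25e-06 and 2.17e-09). SLC3A2, the heavy chain of amino acid exchangers, rose by 0.82 in DLD1 and by 0.16 in NCIH838 (adjusted p = 3.21e-07 and 0.044). PHGDH, the first enzyme of serine synthesis, fell in NCIH838 by 0.46 (adjusted p = 1.5e-05). Among the cytosolic synthetase genes, the largest log2 rise was 0.27 in DLD1 and 0.41 in NCIH838, both in WARS.

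Other genes of tRNA charging, editing and end processing were also counted: 0 rose and 1 fell (ELAC1) of 16 tested in DLD1, and 3 rose (GATC, PTRH2 and ELAC2) and 3 fell (DTD2, ELAC1 and MTFMT) of 17 in NCIH838. Neither count is above the share of all genes called (17.3% in DLD1 and 42.5% in NCIH838). DTD2, which removes wrongly attached amino acids from tRNA, had 17.0 ± 2.60 TPM in NCIH838 KDSR KO and 28.3 ± 1.39 TPM in CTRL (SD, n = 3 each; limma adjusted p = 0.000815). Among 9 elongation factors, GFM2 rose in DLD1 (adjusted p = 0.0358), and in NCIH838 EEF2 and EEF1A2 rose and EEF1A1 fell (adjusted p = 0.00087, 0.0179 and 0.0308). EEF2, the factor that moves the ribosome along the mRNA, had 2525 ± 220 TPM in NCIH838 KDSR KO and 1988 ± 140 TPM in CTRL. In HUH7 0 genes of these 2 lists passed.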

How the data were processed

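The authors deposited 1 table of TPM, the share of a library's mRNA after correction for gene length, for 27166 genes in 18 libraries; per the submitters' processing notes, reads were counted with featureCounts 2.0.0 on hg38. The aligner, strand setting and treatment of reads that fit several genes are not given in the sources used here. Identifiers matched GENCODE 29. TPM times gene length was divided by its smallest nonzero value in each library, which was taken as 1 read. This gave whole numbers for 100% of values within 0.01 and supplied depth (17039634 to 20385767 reads per library).

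Levels were log2(TPM + 1), fitted with limma 3.58.1 in R 4.3.3 with 1 mean per group over the 6 groups, 12 residual degrees of freedom, and eBayes with trend and robust options. The pseudocount of 1 pulls changes of low genes toward 0. Genes were tested where their mean reached 1 TPM in the line or lines compared, and p-values were adjusted by Benjamini-Hochberg over all of them; calls needed an adjusted p under 0.05. All 36 synthetase genes passed this filter in each line. The procedure was run on simulated counts with independent libraries and the same dispersion for every gene. That simulation held no outlying library and no GC trend, so it cannot show how these affect the calls. The design text calls replicates biological. Deviations of KDSR KO and CTRL libraries correlated from -0.136 to 0.301 for the same number and from -0.261 to 0.193 for different numbers. This gave no clear pairing, so none was used.

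The genes, lists, motifs and tests were chosen with earlier results of these data known. All 36 genes are accounted for, and values per library are given for the 20 called in a line, beside AARS, YARS2, DARS, IARS and FARSA, which, like KARS in CTRL cells, EIF2AK4, PHGDH and the tRNA genes past the fourth, were picked after their values were seen. From other lists up to 4 genes with the smallest p in a line could be named. Alternatives were a pseudocount of 0.1, no filter, a filter at 5 TPM, median ratio scaling, quantile normalization, plain eBayes, a replicate block, leaving out mitochondrially encoded and rRNA genes, each line fitted alone, limma voom on the recovered reads, removal of the GC trend, and leaving out each library.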

Additional observations from a re-analysis of the deposited data

Results flagged for a closer look

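The KDSR KO effect of 15 gene and line combinations differed between lines by limma's test of the difference (adjusted p under 0.05 over all genes tested in both lines).

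Between NCIH838 and HUH7, the effect was higher in NCIH838 for CARS (log2 difference 0.27), WARS (0.28) and AARS2 (0.34). It was lower in NCIH838 for DARS (-0.32), FARSB (-0.29), LARS (-0.34), NARS (-0.38), QARS (-0.33), RARS (-0.31), IARS2 (-0.69) and NARS2 (-0.98). DARS and RARS were called in neither line alone. DARS, FARSB and RARS were lost in 9, 21 and 16 of 29 alternatives. DARS, FARSB and RARS lost the call without HUH7 CTRL replicate 1 (adjusted p = 0.0652, 0.116 and 0.0785), the library that holds the lowest HUH7 value of 24 synthetase genes, and without NCIH838 KDSR KO replicate 2 (0.0825, 0.122 and 0.1). LARS lost it without NCIH838 KDSR KO replicate 2 (0.0522) and with the GC trend removed (log2 difference -0.13, adjusted p = 0.058).

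Between NCIH838 and DLD1, the effect was lower in NCIH838 for QARS (-0.20), IARS2 (-0.46) and NARS2 (-0.66), and higher for AARS2 (0.31). The QARS difference was lost in 18 of 29 alternatives, with adjusted p up to 0.105, and that of AARS2 without DLD1 CTRL replicate 3 (0.0529) or DLD1 KDSR KO replicate 2 (0.056) and with the GC trend removed (0.0566). NCIH838 was collected on day 10 and the others on day 8, so line and day cannot be told apart in these differences.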

How the results depend on the processing

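Of the 26 calls within a line, 14 were kept in all 29 alternatives: CARS, GARS, VARS, WARS and TARS2 in DLD1, and CARS, NARS, QARS, WARS, AARS2, IARS2, NARS2, TARS2 and VARS2 in NCIH838. Of the 15 differences between lines, 9 were kept. With the GC trend removed, the cytosolic count in DLD1 was 13, and the counts of differences were 8 for DLD1 against HUH7 and 7 for NCIH838 against DLD1. With quantile normalization the last 2 counts were 2 and 8. Median ratio scaling left 3 mitochondrial calls in DLD1, and fitting each line alone left 5 cytosolic calls in NCIH838. GC removal reversed FARSA in DLD1 (0.11, adjusted p = 0.0376) and TARS in NCIH838 against HUH7 (0.16, adjusted p = 0.00402), both uncalled otherwise. The cause was not tested. Leaving out 1 library gave 0 to 0 calls in HUH7 (cytosolic and mitochondrial), 4 to 8 cytosolic and 2 to 5 mitochondrial calls in DLD1, and 5 to 10 and 5 to 8 in NCIH838. Differences between lines then ran from 0 to 0 for DLD1 against HUH7, 8 to 16 for NCIH838 against HUH7 and 2 to 7 for NCIH838 against DLD1. Differences between CTRL lines ran from 26 to 30, 28 to 32 and 25 to 29 in the same order.

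The replicate numbers gave no clear pairing, since correlations of deviations between same-numbered libraries ran from -0.136 to 0.301. For NCIH838 they were 0.151, 0.301 and 0.008. A replicate block ended the calls of HARS in both lines and of MARS2 in DLD1 (adjusted p = 0.0554). The deposited values are TPM. The planned edgeR test was not run, and limma voom on the recovered reads took its place. SARS2 and FARS2 are limited by depth, with 14 and 92 reads in their lowest libraries.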
